A study of Danio rerio with 7 samples.

Results

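Transcripts of the fibroblast growth factor (Fgf) family were measured in hearts of cora mutant zebrafish and of their unaffected clutchmates at 96 hpf (hours post fertilization). The genes were chosen by name. They were all gene IDs whose Ensembl symbol begins with fgf, irrespective of case, together with the Fgf target and feedback genes spry1, spry2, spry4, dusp6, etv4 and etv5b. This gave 42 of the 33737 gene IDs in the deposited tables. They comprised 18 ligands, 5 Fgf binding proteins, 6 intracellular Fgf homologous factors, 7 receptors, 5 target genes and fgfr1op2. A further 10 IDs of the symbol table meet the rule, among them those of FGF3, fgf2, fgf17 and SPRY1, and were not analysed here.

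Fgf ligands are secreted proteins that bind receptor tyrosine kinases together with heparan sulphate at the cell surface, and the receptors signal through Ras and the MAPK kinases to transcription factors such as Etv4 and Etv5. The same signal raises Spry and Dusp6, which dampen it, so these genes are widely read as a record of Fgf activity. In the zebrafish embryo, Fgf8 is needed for the formation of ventricular heart muscle. Fgf binding proteins are secreted carriers that release Fgfs held in the extracellular matrix.

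The mutant allele, cora stl325 (corazoncito), came from an ENU mutagenesis screen and carries a nonsense mutation in taf5, whose product is a scaffold subunit of the general transcription factor TFIID. RNA sequencing was performed on pooled hearts, in 4 libraries of homozygous cora stl325/stl325 embryos and 3 libraries of unaffected clutchmates. All embryos were untreated and carried Tg(cmlc2::gfp), a transgene that marks heart muscle with green fluorescent protein. The labels give the genotypes as KO and WT, but unaffected clutchmates of a recessive mutant can include heterozygous carriers. Replicate numbers run from 1 to 4 in cora, whereas the controls are labelled 1, 3 and, for the last, without a number. No label says whether the pools came from separate clutches, so p-values here measure only the spread between these 7 pools.

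Each library held 21474488 to 32037220 counts, so 3 counts corresponded to 0.0936 to 0.140 CPM (counts relative to the library total). Levels below are normalized CPM, in which the library total is further corrected for composition by TMM. taf5 was at 5.10 to 8.83 normalized CPM in the controls and at 1.97 to 4.56 in cora, with a log2 fold change of -0.94 ± 0.38 (SE, adjusted p = 0.232 by edgeR's quasi-likelihood test). In the annotation 11 of its exon bases are shared with atp5md on the opposite strand. The heart label was checked against myl7, the atrial and ventricular myosin light chain gene, which was at 31.1, 1069 and 472 normalized CPM in controls 1 and 3 and the unnumbered control. myl7 was at 525, 51.0, 292 and 74.0 in cora replicates 1 to 4. The pools thus differed widely in this heart muscle transcript within both groups. Of 14 cardiomyocyte markers tested, 11 had log2 fold changes below 0 and 3 above, with a median of -0.65. Of these markers 0 passed the test between the groups. Control replicate 1 stood apart, with 33.7% of its counts on mitochondrially encoded genes against 16.8% to 21.8% in the other 6 libraries. Over all genes tested, its Spearman correlation was 0.916 with control 3 and 0.916 with the unnumbered control. With cora replicates 1 to 4 it was 0.919, 0.910, 0.901 and 0.914. Control 3 and the unnumbered control correlated at 0.976. Genes of other tissues were abundant. The summed epidermis markers were at 35563, 10594 and 11675 normalized CPM in controls 1 and 3 and the unnumbered control. In cora they were at 20890 to 31276, so the groups overlapped through control replicate 1 alone. Of 10 epidermis markers tested, 8 had log2 fold changes above 0 and 2 below. Control replicate 1 was also the highest control for the summed skeletal muscle markers, at 10373 normalized CPM against 3063 and 2677. In cora replicates 1 to 4 these markers were at 7146.5, 4287, 3922 and 13386.5. The summed lens markers were at 380 to 836 normalized CPM in the controls and at 1591 to 25103 in cora. The summed liver markers were at 7320 to 25738 in the controls and at 2773 to 24880 in cora. Of the 13 marker lists, the exocrine pancreas had 8 of 8 genes tested lower in cora, the lens 5 of 11 higher, the leukocytes 2 of 7 higher and the endothelium 1 of 8 lower, and no gene of the other 9 lists passed the test.

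The comparison of cora with control hearts asked which Fgf genes changed with loss of taf5. Of the 42 genes, 37 had enough counts to be tested, and fgfbp3 was the only one to pass the threshold of an adjusted p under 0.05. It fell to 12.8% of its control level. Among the genes that did not pass, the largest rise in the fit was that of another binding protein gene, fgfbp2b. The receptors and target genes had log2 fold changes between -0.65 and 0.39, and none had an unadjusted p under 0.05. The log2 fold changes of the 37 genes had a median of -0.06, with 20 below 0 and 17 above, against a median of -0.03 over all 21632 genes tested, of which 52.2% were below 0.

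The 1 gene called lower, fgfbp3, was 2.70% of those tested, against 0.860% of all genes called lower. The genes were chosen with earlier results of these data known, so this share is a description and not an independent test. No gene of the family was called higher, against 1.11% of all genes. At an unadjusted p under 0.05, 3 genes were lower (8.11%) and 2 were higher (5.41%), and the shares of all genes were 8.61% and 9.13%. Every cora library was lower than every control library for 4 genes (10.8%) and higher for 2 (5.41%), and the shares of all genes were 8.73% and 9.01%. Apart from fgfbp3, the shares in the family lay near those of all genes.

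**Figure D1:**
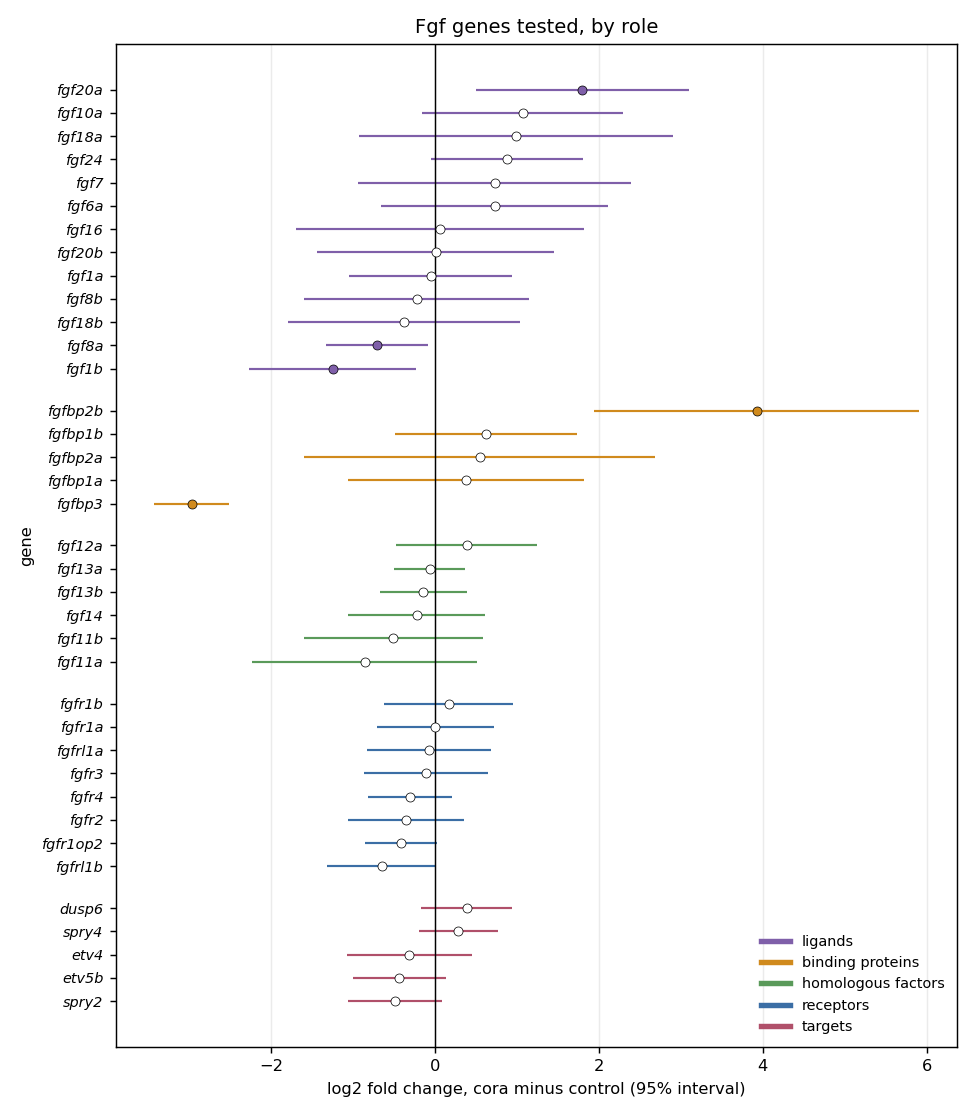
The log2 fold change (cora minus control, x axis) of the 37 Fgf genes tested, grouped by role, with bars for the 95% interval from the quasi-likelihood fit over 3 control and 4 cora pools. Filled points have an unadjusted p under 0.05, and fgfbp3 at -2.96 and fgfbp2b at 3.93 lie farthest from 0.

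Among the binding proteins, fgfbp3 (ENSDARG00000040162) showed the clearest difference. It lies on chromosome 17 of the Zv9 build from 23128755 to 23132148, on the plus strand, and its exons overlap no other annotated gene. Its normalized CPM was 167 in control replicate 1, 152 in control replicate 3 and 146 in the control without a number. In cora replicates 1, 2, 3 and 4 it was at 23.5, 16.2, 19.6 and 19.9 normalized CPM. The groups were far apart, since the lowest control was 6.19 times the highest cora library, and both groups were tight, with an SD of 6.98% of the mean in the controls and of 15.05% in cora. The mean fell from 155 ± 10.8 (SD, n = 3) to 19.8 ± 2.98 (SD, n = 4) normalized CPM. The log2 fold change was -2.96 ± 0.20 (SE), with a 95% interval of -3.42 to -2.50 and an adjusted p of 0.00127 by edgeR's quasi-likelihood test, and by p the gene ranked 2 among the 21632 tested.

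Tissue markers varied beside fgfbp3. Control replicate 1, with the least myl7, had the highest fgfbp3. Cora replicates 2 and 4, low in myl7, were at 16.2 and 19.9 normalized CPM of fgfbp3, against 23.5 and 19.6 in cora replicates 1 and 3. The summed cardiomyocyte markers, of which ttn was the most abundant, ordered the pools differently from myl7. Their sum was 2718, 4638 and 2420 normalized CPM in controls 1 and 3 and the unnumbered control. In cora replicates 1 to 4 it was 3901, 1747, 2315 and 3358. The summed skeletal muscle markers were highest in control replicate 1 and cora replicate 4, at 10373 and 13386.5 normalized CPM. Their part in the cardiomyocyte sum was not tested. The summed exocrine pancreas markers fell, as fgfbp3 did, from 5279 to 19791 normalized CPM in the controls to 577 to 1358 in cora. The part of heart muscle or pancreas content in the result was not tested. In bulk pools, fewer cells of a type and less RNA per cell cannot be told apart. The difference was not shared by the genes near fgfbp3 that were tested. ppp1r3c, the next gene on one side, encodes a glycogen-targeting subunit of protein phosphatase 1. It lay at -0.08 on the log2 scale (adjusted p = 0.961, edgeR). The next gene on the opposite side was not tested. The other 4 neighbours tested were all on that side, lay between -0.47 and 0.74, and none passed the test. Of these, ENSDARG00000024873 was scarce, at 0.460 to 0.949 normalized CPM.

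fgfbp2b (ENSDARG00000038056) moved the other way but varied more among the mutants. It was at 3.79, 1.43 and 1.54 normalized CPM in control replicates 1 and 3 and the unnumbered control. In cora replicates 1 to 4 it was at 30.2, 23.5, 77.6 and 4.56 normalized CPM. All cora libraries were above all controls, but cora replicate 4 was only just above control replicate 1, and cora replicate 3 was far above the rest. The log2 fold change was 3.93 ± 0.88 (SE), with a 95% interval of 1.95 to 5.91, and the gene missed the threshold with an adjusted p of 0.0573 (edgeR, unadjusted p = 0.00147). Without cora replicate 4 it passed, at a log2 fold change of 4.29 and an adjusted p of 0.0181 (edgeR), and over the libraries left out in turn the adjusted p ran from 0.0181 to 0.222.

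The other 3 binding proteins did not pass the test. fgfbp1b, the neighbour of fgfbp2b on chromosome 1, was at 8.74, 3.40 and 2.03 normalized CPM in the controls and at 7.58, 10.1, 5.96 and 5.46 in cora. The groups overlapped through control replicate 1 alone, and without that library the log2 fold change rose from 0.63 to 1.43 and the adjusted p fell from 0.561 to 0.0785 (edgeR). fgfbp2a and fgfbp1a, which are neighbours on chromosome 14, overlapped between the groups, with log2 fold changes of 0.55 and 0.38. fgfbp2a was at 0.370 normalized CPM in cora replicate 4 and at 15.9 in cora replicate 2.

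**Figure D2:**
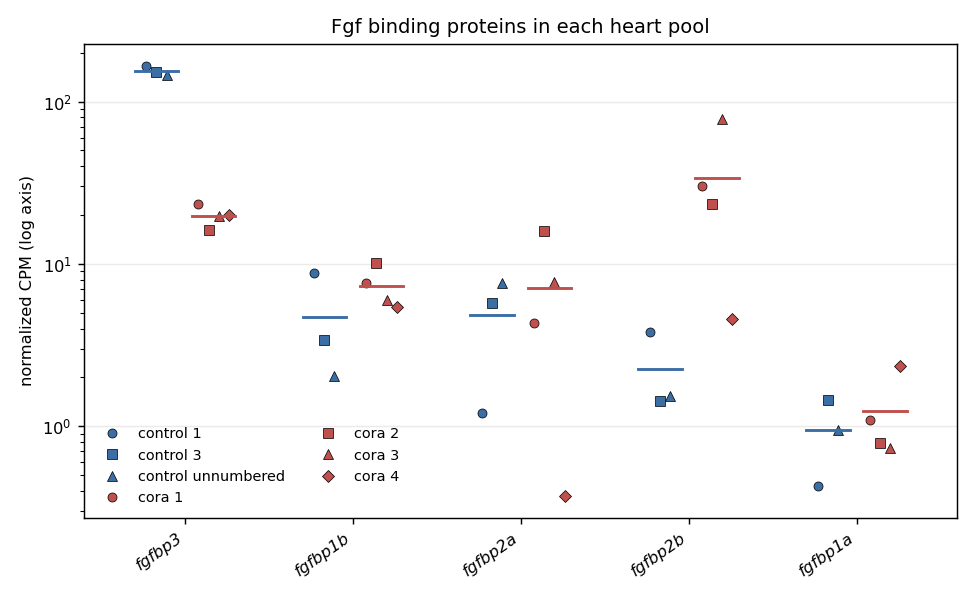
Normalized CPM (log axis) of the 5 Fgf binding protein genes in the 3 control pools (blue) and the 4 cora pools (red), with a symbol for each pool and a line at the group mean. fgfbp3 lies at 146 to 167 in the controls and at 16.2 to 23.5 in cora, whereas fgfbp2b lies at 1.43 to 3.79 in the controls and at 4.56 to 77.6 in cora.

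The makeup of binding protein transcripts accordingly differed between the groups. Per kilobase of exon, fgfbp3 was the most abundant of the 42 genes in control hearts, at 101 normalized CPM per kilobase, and ranked 8 in cora at 12.9. fgfbp2b ranked 26 in the controls, at 1.75 normalized CPM per kilobase, and 2 in cora at 26.4. That cora value is a mean over libraries at 4.56 to 77.6 normalized CPM, and the gene missed the threshold. fgfbp3 supplied 85.4% to 89.6% of the per-kilobase level of the 5 binding proteins in the control libraries and 14.4% to 43.9% in the cora libraries. The highest cora share was that of replicate 4, in which fgfbp2b was lowest.

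**Figure D3:**
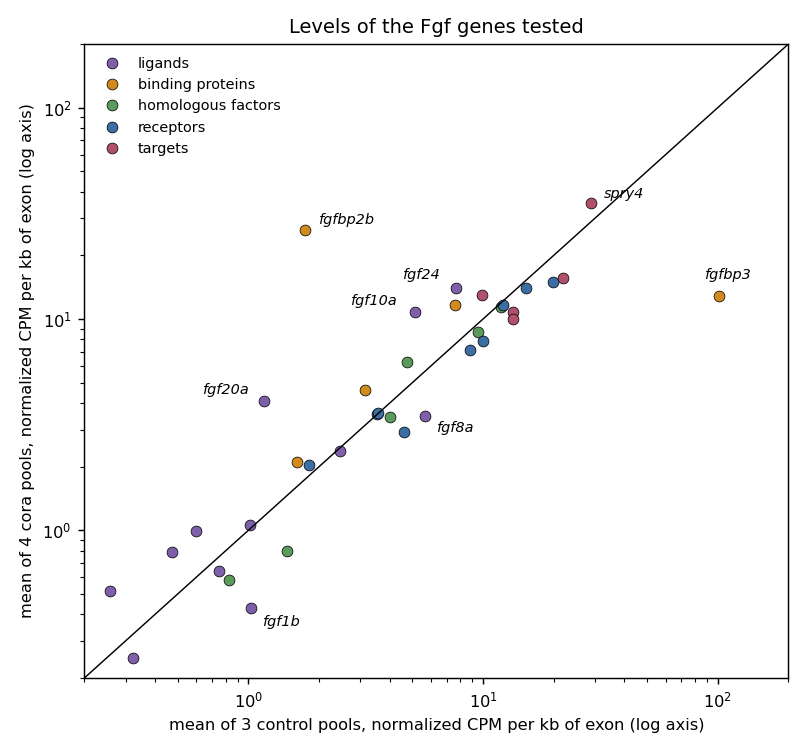
Mean level per kilobase of exon (normalized CPM per kb, log axes) in the 3 control pools (x) against the 4 cora pools (y) for the 37 Fgf genes tested, coloured by role, with a line of equal levels. fgfbp3 lies far below the line, at 101 in the controls and 12.9 in cora, and fgfbp2b far above it, at 1.75 and 26.4.

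Of the 18 ligands, 13 were tested, 5 below and 8 above 0, and none passed the adjusted threshold. The smallest adjusted p was 0.146. fgf8a (ENSDARG00000003399), the zebrafish gene mutated in acerebellar, was at 12.7, 12.5 and 12.9 normalized CPM in the controls and at 7.83, 10.5, 7.81 and 5.05 in cora. The controls were nearly equal and every cora library was below them. Its log2 fold change was -0.70 ± 0.28 (SE, unadjusted p = 0.0311, adjusted p = 0.226, edgeR), with a 95% interval of -1.33 to -0.08.

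fgf1b (ENSDARG00000042811), whose human counterpart FGF1 binds all the signalling Fgf receptors, was at 1.81, 1.67 and 2.19 normalized CPM in the controls and at 0.837, 0.673, 0.600 and 1.07 in cora. Here too the groups did not overlap. Its log2 fold change was -1.24 ± 0.45 (SE, unadjusted p = 0.0218, adjusted p = 0.192, edgeR), on 13 to 67 counts per library. fgf20a (ENSDARG00000007356), which is required for regrowth of the zebrafish fin after amputation, was low in every pool, at 0.301, 1.03 and 1.34 normalized CPM in the controls and at 2.64, 3.74, 4.34 and 1.85 in cora. Every cora library was above every control, and control replicate 1 was the lowest of all. Its log2 fold change was 1.80 ± 0.58 (SE, unadjusted p = 0.0119, adjusted p = 0.146, edgeR), on 7 to 100 counts per library, and it passed only with DESeq2 (adjusted p = 0.0252).

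fgf24 and fgf10a, which act one after the other in the zebrafish pectoral fin bud, were the most abundant ligands per kilobase in cora. fgf24 was at 10.4, 13.4 and 11.9 normalized CPM in the controls and at 26.7, 20.04, 32.4 and 8.13 in cora. fgf10a was at 4.56, 12.5 and 13.8 in the controls and at 21.9, 36.9, 20.7 and 7.10 in cora. For both genes cora replicates 1 to 3 lay above all controls and cora replicate 4 did not. The log2 fold changes were 0.87 (adjusted p = 0.311, edgeR) and 1.07 (adjusted p = 0.347), and without cora replicate 4 they were 1.15 (adjusted p = 0.0583) and 1.36 (adjusted p = 0.142).

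Markers of cartilage and pharyngeal arches, which also lie close to the heart at this stage, were likewise lowest among the mutants in cora replicate 4. All 17 genes of this list were tested and none passed, 14 were above 0 and none was at 0 in all libraries. Their sum was 305, 223 and 205 normalized CPM in the controls and 368, 386, 356 and 222 in cora. Cora replicate 4 was thus within the control range, as for fgf10a. It was below all controls for fgf24 and above all controls for fgfbp2b. matn1, a cartilage matrix gene, was at 5.64 to 9.91 in the controls and at 23.9, 45.7, 32.9 and 10.3 in cora replicates 1 to 4. Among the mutants the cartilage sum was highest in cora replicate 2, whereas fgfbp2b was highest in cora replicate 3. The summed leukocyte markers, of which mmp9 was the most abundant, were at 101, 61.8 and 44.3 normalized CPM in the controls. In cora replicates 1 to 4 the leukocyte sum was 1363, 1021, 2397 and 435. The part of cartilage, pharyngeal arches or leukocytes in the levels of fgf24, fgf10a and fgfbp2b was not tested.

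The remaining ligands were scarce. fgf1a, fgf6a, fgf7, fgf8b, fgf16, fgf18a, fgf18b and fgf20b had log2 fold changes between -0.38 and 0.99, unadjusted p over 0.05 and overlapping groups. The 5 genes that were not tested were all ligands. fgf5 and fgf9 had 54 and 29 counts over all libraries, fgf23, which encodes the phosphate hormone, had 19, fgf22 had 2 and fgf6b had 0. Zero counts in a library allow a level of up to 0.0936 to 0.140 CPM, by counting error alone.

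Receptor transcripts did not differ detectably between the groups. The genes fgfr1a, fgfr1b, fgfr2, fgfr3 and fgfr4 encode the signalling receptors, and fgfrl1a and fgfrl1b encode receptors that lack the kinase domain. None of the 7 had an unadjusted p under 0.05, and all 7 overlapped between the groups. fgfr2 was at 80.5, 46.0 and 43.1 normalized CPM in the controls and at 56.7, 53.7, 28.2 and 38.4 in cora, with a log2 fold change of -0.35 ± 0.31 (SE, 95% interval -1.06 to 0.36, adjusted p = 0.618). fgfr3 was at 67.9, 39.9 and 28.0 in the controls and at 44.1, 54.5, 26.8 and 42.5 in cora, with a log2 fold change of -0.11 ± 0.34 (SE, 95% interval -0.87 to 0.65, adjusted p = 0.910). Both were highest in control replicate 1, and without it the log2 fold changes were 0.0034 and 0.32.

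fgfr4 was at 38.9, 48.5 and 45.4 normalized CPM in the controls and at 47.3, 27.9, 37.0 and 31.2 in cora, with a log2 fold change of -0.30 ± 0.23 (SE, 95% interval -0.81 to 0.21, adjusted p = 0.537). fgfr1a was at 37.2, 25.3 and 17.4 in the controls and at 32.8, 33.6, 22.0 and 18.5 in cora. Its group means were almost equal, at 26.6 ± 9.95 (SD, n = 3) and 26.7 ± 7.63 (SD, n = 4), and the 95% interval of its log2 fold change ran from -0.71 to 0.72 (adjusted p = 0.994). fgfr1b was the scarcest of the kinase receptors, at 4.69, 4.19 and 4.29 in the controls and at 4.48, 6.17, 2.82 and 6.28 in cora, with a log2 fold change of 0.17 ± 0.35 (SE, adjusted p = 0.852).

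The kinase-lacking fgfrl1a was at 19.8, 51.4 and 43.1 normalized CPM in the controls and at 50.4, 34.6, 30.2 and 29.9 in cora, with a log2 fold change of -0.07 (95% interval -0.83 to 0.69). fgfrl1b was at 10.16, 15.3 and 21.1 in the controls and at 12.7, 8.22, 9.88 and 8.83 in cora. Its log2 fold change of -0.65 (adjusted p = 0.293, edgeR) was the lowest of the receptors, and its 95% interval of -1.31 to 0.02 just reached 0. The intervals of the receptors reached as far as -1.31, so moderate changes could not be resolved with 7 pools.

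fgfr1op2 is named after the human FGFR1 oncogene partner 2 of a leukaemia fusion and is not itself a receptor. It was at 41.2, 41.4 and 37.0 normalized CPM in the controls and at 32.3, 32.001, 32.6 and 23.4 in cora. Every cora library was lower than every control, with a log2 fold change of -0.41 ± 0.19 (SE, 95% interval -0.85 to 0.03, adjusted p = 0.316, edgeR).

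The 6 Fgf homologous factors stay inside the cell and, in mammals, bind voltage-gated sodium channels. All 6 were tested, 5 were below 0 and 1 above, their log2 fold changes ran from -0.86 to 0.39, and none had an unadjusted p under 0.05. fgf13a was the most abundant per kilobase, at 11.95 normalized CPM per kilobase in the controls and 11.4 in cora, with a log2 fold change of -0.06 and a 95% interval of -0.50 to 0.37. fgf13b, its paralog, was at 9.51 and 8.64 normalized CPM per kilobase. fgf12a was the gene above 0, and fgf11a, at 10 to 64 counts per library, was the lowest.

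The transcriptional targets were read as the output of the pathway, and no test among them was passed. Their summed level was 211, 212 and 226 normalized CPM in the controls and 235, 222, 243 and 146 in cora. Cora replicates 1 to 3 were thus within or slightly above the control range, and cora replicate 4 was below it. No target had an unadjusted p under 0.05, and each overlapped between the groups.

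The Sprouty genes encode cytoplasmic inhibitors of receptor tyrosine kinase signalling. spry4 was at 77.2, 67.9 and 69.5 normalized CPM in the controls and at 85.9, 101, 96.1 and 64.7 in cora, with a log2 fold change of 0.28 ± 0.21 (SE, adjusted p = 0.544). spry2 was at 50.9, 49.6 and 50.3 in the controls and at 50.5, 37.0, 31.9 and 23.9 in cora, with a log2 fold change of -0.49 ± 0.25 (SE, adjusted p = 0.360). The controls were nearly equal for spry2, whereas the cora libraries spread from the control level down to that of cora replicate 4. Per kilobase, spry4 ranked 2 in the controls and 1 in cora, and spry2 ranked 3 in both.

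dusp6 encodes a phosphatase that inactivates the MAP kinase Erk. It was at 27.7, 31.0 and 29.6 normalized CPM in the controls and at 45.3, 38.0, 46.1 and 24.7 in cora, with a log2 fold change of 0.39 ± 0.24 (SE, adjusted p = 0.462). Cora replicates 1 to 3 were above all controls and replicate 4 was below them, the order already seen for fgf24. The ETS factor genes etv4 and etv5b leaned the other way. etv4 was at 23.2, 27.3 and 29.2 in the controls and at 19.1, 22.4, 33.3 and 10.8 in cora, with a log2 fold change of -0.31 ± 0.34 (SE, adjusted p = 0.689), and 130 of its 1974 exon bases are shared with an antisense gene. etv5b was at 32.3, 36.0 and 46.9 in the controls and at 33.8, 22.8, 35.5 and 21.8 in cora, with a log2 fold change of -0.43 ± 0.25 (SE, adjusted p = 0.417).

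**Figure D4:**
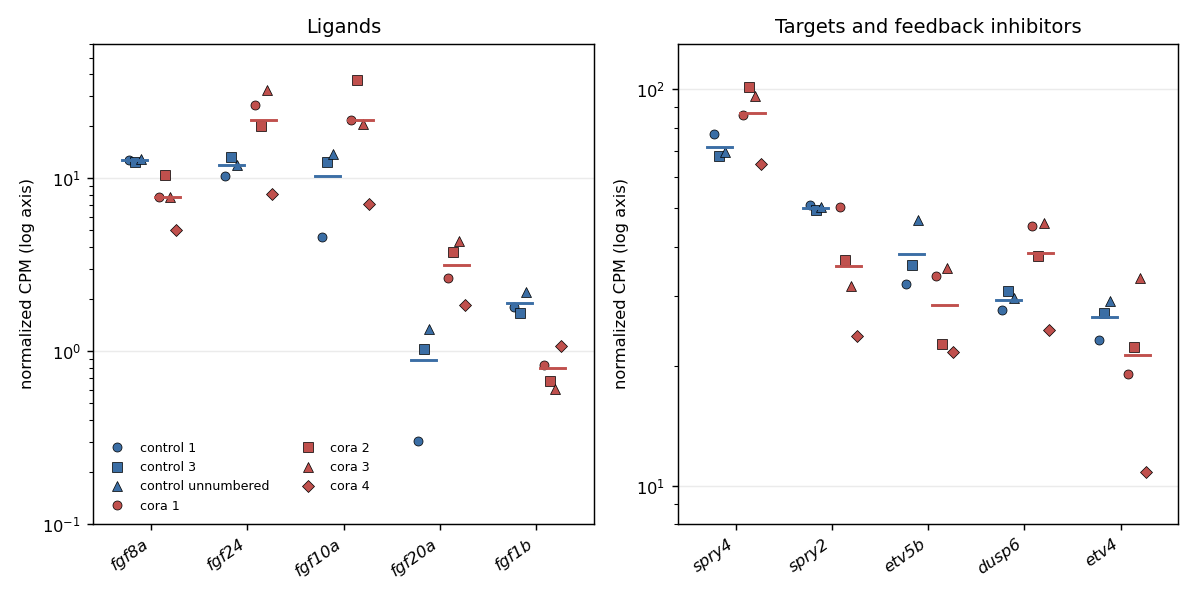
Normalized CPM (log axes, different in the panels) of 5 ligand genes and 5 target or feedback genes in the 3 control pools (blue) and the 4 cora pools (red), with a symbol for each pool and a line at the group mean. fgf8a and fgf1b lie lower and fgf20a higher in all cora pools, and cora replicate 4 lies below the other cora pools for fgf8a, fgf24, fgf10a, fgf20a and each of the 5 targets.

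Cora replicate 4 was the lowest cora library for 17 of the 37 genes tested, and replicates 1, 2 and 3 for 1, 9 and 10. The same count over all genes is not given here, so it cannot be read as particular to these genes. Leaving out each library in turn gave fgfbp3 a log2 fold change of -3.05 to -2.88 and an adjusted p of 0.00148 to 0.0131 (edgeR), and it passed in all 7 fits.

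**Figure D5:**
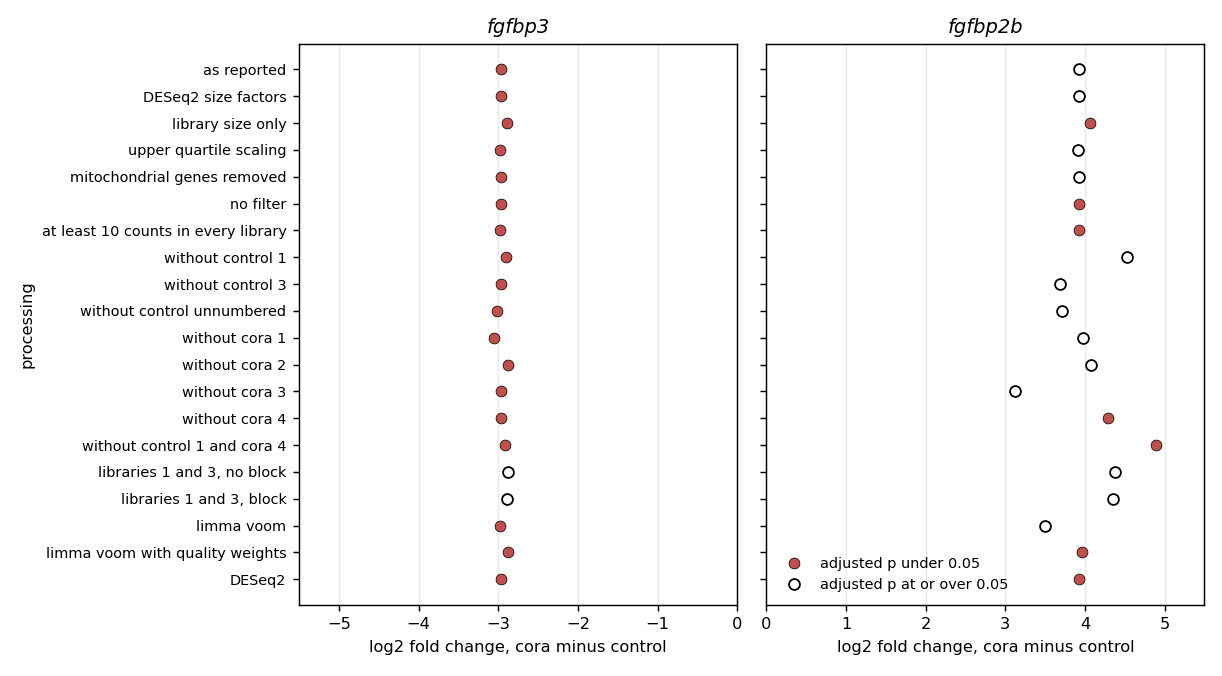
The log2 fold change (cora minus control, x axis) of fgfbp3 and fgfbp2b under the reported fit and 19 alternatives (y axis), filled where the adjusted p was under 0.05. fgfbp3 stays between -3.05 and -2.88 and is unfilled only in the fits of 4 libraries, whereas fgfbp2b runs from 3.12 to 4.89 and changes side.

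By position, 5 of the genes lie on chromosome 1, which also carries taf5 (Zv9, 49921680 to 49938546). fgfbp2b (21460057 to 21465276) and fgfbp1b (21451706 to 21452326) lie 28.5 Mb from taf5 and fgf20a (15134972 to 15136368) 34.8 Mb, and these were the 3 with positive log2 fold changes. fgf8b, 18.8 Mb away, and spry2 had log2 fold changes of -0.22 and -0.49. The mutants are selected for the mutant copy at taf5, and how far along the chromosome that copy extends is not known from these counts. Differences between strain copies and effects of taf5 therefore cannot be told apart for these genes. fgfbp3 lies on chromosome 17, and differences between strain copies there were not tested.

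The other genes of the pathway were taken from 6 lists with 117 entries, of which 90 IDs matched and 88 were tested. They had a median log2 fold change of 0.13, and 39 were below 0 and 49 above. Of the 88, 0 were called lower and 3 higher, and the shares of all genes were 0.860% and 1.11%. ksr1b, which encodes a scaffold of the Raf, Mek and Erk kinases, rose from 11.1 ± 2.00 (SD, n = 3) to 27.9 ± 4.15 (SD, n = 4) normalized CPM, a log2 fold change of 1.33 (adjusted p = 0.0311, edgeR). rras, a Ras-related GTPase, rose from 40.4 ± 6.05 to 99.95 ± 23.3 normalized CPM, a log2 fold change of 1.31 (adjusted p = 0.0432). frs2a, which encodes a docking protein that links Fgf receptors to Grb2 and Ras, rose from 0.966 ± 0.251 to 4.79 ± 1.33 normalized CPM, a log2 fold change of 2.30 (adjusted p = 0.0344). For each of them every cora library was above every control library. None of the 3 remained significant when control replicate 3, the unnumbered control, or any of cora replicates 1, 2 and 3 was left out (0 called in each of these 5 fits), and 6 genes of the lists were called higher without control replicate 1.

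The lists differed in direction. In the list of Ras GTPases and MAPK kinases, 16 of 18 tested were above 0, with a median of 0.38 and 2 called higher. Of the adaptors and Ras activators 11 of 14 were above 0, with a median of 0.24 and 1 called higher. The other feedback inhibitors had 7 of 12 above 0 and the other transcriptional targets 2 of 7, with medians of 0.16 and -0.15 and no call. The co-receptors and extracellular modulators had 12 of 17 below 0 and a median of -0.25, and the genes of heparan sulphate synthesis and its core proteins 12 of 20 below 0 and a median of -0.25, again with no call. The summed level of the Ras-MAPK list was 405 to 502 normalized CPM in the controls and 612 to 683 in cora. Its most abundant gene was rras, which was itself called higher, so the sum partly repeats that call. That of the heparan sulphate list was also higher in every cora library, against the sign of its median. It was at 962 to 1235 normalized CPM in the controls and at 1630 to 2017.5 in cora, and sdc4 was its most abundant gene. The sums of the other lists overlapped between the groups. These medians stand beside that of -0.03 over all genes, of which 52.2% were below 0, and the lists were not tested as lists.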

How the data were processed

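RNA was sequenced from 3 control and 4 cora pools of hearts with a SMARTER mRNA library kit. Per the labels, the authors used STAR 2.0.4b, Subread, featureCounts 1.4.5, edgeR and limma. Strand handling and the Ensembl release are not given in the sources used here, and Zv9 was read from the scaffold names in the tables. The authors deposited counts, which are whole reads per gene without normalization. The deposited CPM is the count scaled to a common library total, and the deposited RPKM is that value per kilobase of exon. Only the counts were used here, because the other columns follow from them. Reads of paralogs and of overlapping genes on opposite strands could have been mixed.

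The tests were run with edgeR 4.0.16 under R 4.3.3: TMM scaling, filterByExpr by group, glmQLFit and glmQLFTest without a covariate, a prior count of 0.125, and Benjamini-Hochberg adjustment over the 21632 genes kept. Standard errors came from the F statistic, and 95% intervals from the t distribution on the fit's degrees of freedom. The procedure was also run on counts simulated from the means and spreads of this fit. Those counts hold no tissue differences between pools, so that run cannot show how stable the calls are here. Symbols came from a table that matched 21939 IDs (65%). Paralogs sharing a symbol were named by comparing 15 flanking genes on each side with the GRCz12tu gene order, which placed 41 of 42 members, and fgf9 kept its symbol. A list entry ending in a or b also took the symbol without that letter. Per-library values are given for genes with an unadjusted p under 0.05, fgfbp3, the named targets, the fgfr genes and the 5 highest per kilobase, and of the pathway lists for genes with an adjusted p under 0.05. fgf24, fgf10a, the other binding proteins, the fgfrl1 genes, fgf13a, fgf13b, myl7 and matn1 were added after their values were seen. The genes and lists were chosen with earlier results of these data known. The alternatives were other scalings, filters and tests (DESeq2 1.42.0, limma 3.58.1 voom), each library left out in turn, and the libraries numbered 1 and 3 with or without the number as a block. Figures were drawn with matplotlib.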

Additional observations from a re-analysis of the deposited data

Results flagged for a closer look

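For fgfr1op2, cora replicate 4 was far below the other cora libraries, at 23.4 normalized CPM against 32.001 to 32.6, and the gap to the nearest library was 0.939 of the range of the 4 cora libraries, above Dixon's 95% critical value for 4 samples. The 16 genes with per-library values under the naming rule were examined in this way, and chance flags about 1 in 20 groups.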

How the results depend on the processing

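fgfbp3 was lower in cora under each of the 19 alternatives. It missed the threshold only in the fits of the 4 libraries numbered 1 and 3, at a log2 fold change of -2.88 (adjusted p = 0.0788, edgeR) without and -2.89 (adjusted p = 0.0609) with the number as a replicate block, so 0 family members were called lower in both. With the replicate block 0 of 21404 genes passed, 2101 had an unadjusted p under 0.05, and 0 pathway genes were called higher, as without it. Nothing in the labels says that the numbers pair the pools. Deviations from the group means correlated at r = 0.0907 between the libraries numbered 1 and at 0.0383 between those numbered 3. Control replicate 1 and cora replicate 2, with different numbers, reached 0.244. These values therefore cannot decide whether the pools are paired.

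Members called higher numbered 1 (fgfbp2b) with library size scaling, no filter, at least 10 counts in every library, and control replicate 1 and cora replicate 4 both left out (chosen after seeing the data), 2 with quality weights (fgfbp2b and fgfbp1b) and 2 with DESeq2 (fgfbp2b and fgf20a), and 0 to 1 with each library left out. Pathway genes called lower numbered 0 to 1 with each library left out, 2 with both left out, 7 with quality weights and 3 with DESeq2. Pathway genes called higher numbered 0 to 6 with each library left out, 8 with both left out, 12 with quality weights and 6 with DESeq2. Over all genes, 426 were called, against 34 without the unnumbered control, 41 without control replicate 3, 51 without cora replicate 1, 85 without cora replicate 3, 208 without cora replicate 2, 635 without cora replicate 4, 1207 without control replicate 1, 2148 without both, 1789 with DESeq2 and 3113 with quality weights. The cause was not tested.

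Of 303 values of 16 genes under alternatives, 272 kept direction and side of the threshold, 8 gained and 2 lost significance, and 21 turned direction. These 21 were all in etv4, etv5b and the receptor genes fgfr1a, fgfr1b, fgfr2 and fgfr3. fgfr1a turned to -0.0082 with upper quartile scaling, -0.0023 with at least 10 counts, -0.19 in both 4-library fits, and ran from -0.22 to 0.34 with each library left out. fgfr3 turned to 0.021 with library size scaling, 0.23 with quality weights and 0.30 with both left out, and ran from -0.36 to 0.32. fgfr2 turned to 0.052 with both left out and ran from -0.51 to 0.0034. In the 4-library fits without and with the block, fgfr1b was at -0.28 and -0.32, etv4 at 0.053 and 0.0046, and etv5b at 0.023 and 0.025. Depth limits the scarce genes fgf20a and fgf1b, which rest on 7 to 100 and 13 to 67 counts per library. Both kept their direction in every fit that tested them, so none of the 21 turns was theirs.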
